A study of Homo sapiens with 10 samples.

Results

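The regions described are the ChIP-seq peaks of ERG and EWS that lie in 5 crowded windows of the human genome (build hg19). The windows span chromosome 5 from 179 to 180.9 Mb, chromosome 6 from 11 to 12 Mb and from 20 to 21 Mb, and chromosome 8 from 38 to 39 Mb and from 128 to 129 Mb. A peak belonged to a window when its centre lay in it, and 4 peaks within 10 kb of one gene in the second chromosome 8 window were left out. This gave 1263 of the 30301 peaks in 7 lists. The windows were selected on the number of peaks per megabase in the VCaP ERG and EWS lists. These numbers are therefore given as a description, with no test.

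ERG is a transcription factor of the ETS family, whose members bind DNA at a GGAA core. In many prostate cancers a gene fusion places ERG under an androgen-driven promoter, and VCaP, a line from a vertebral metastasis of prostate cancer, carries such a fusion. EWS, the product of EWSR1, is an RNA-binding protein known from the Ewing sarcoma fusions and studied here as a co-activator of ERG.

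Antibodies were clone 9FY against ERG and clone G5 against EWS. Each was used in VCaP cells and in RWPE1, a line of normal prostate cells. The RWPE1 cells stably expressed either wild-type ERG or the point mutant ERG P436A, and no cells received a treatment. Wild-type ERG in RWPE1 had 2 replicate lists and every other group a single one, so differences between groups have no replicate check. The labels do not say whether the replicates came from separate cultures, and their spread may be technical. The lists give positions only, so peak height and read depth are unknown.

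Genes known to lie in these stretches include MAPK9 and FLT4 on chromosome 5, a stress kinase and a receptor of lymphatic vessel growth. NEDD9, a scaffold protein of cell adhesion, lies in the first chromosome 6 stretch. E2F3, a cell cycle transcription factor, and its neighbours MBOAT1 and CDKAL1 lie in the second. FGFR1, a growth factor receptor, and NSD3, a histone methyltransferase, lie in the first chromosome 8 stretch. These names are background: no peak was assigned to a gene, as the gene table used here is of a later assembly.

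VCaP accounted for nearly all peaks in the windows. They held 518 of 7712 VCaP ERG peaks (6.72%) and 676 of 9500 VCaP EWS peaks (7.12%). RWPE1 lists placed 12 peaks of wild-type ERG replicate 1 there (0.631% of the list), 9 of replicate 2 (0.461%) and 15 of ERG P436A (0.859%). EWS lists of RWPE1 placed 27 peaks there with wild-type ERG (0.473%) and 6 with ERG P436A (0.336%). The wild-type ERG replicates averaged 10.5 ± 2.12 peaks (SD, n = 2), and the single ERG P436A list lay above both. Whether these lists were called in the same way is not known.

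The second chromosome 6 window had the most peaks of both VCaP lists, with 167 of ERG and 171 of EWS. In the list of all megabases it ranked 2 for ERG and 6 for EWS. The first chromosome 6 window held 62 ERG and 144 EWS peaks, and the first chromosome 8 window 79 and 157. EWS peaks thus outnumbered ERG peaks by 2.32 and 1.99 times there, against 1.02 times in the second chromosome 6 window and 1.23 times over the whole lists. On chromosome 5 the order was turned, with 152 ERG and 123 EWS peaks, a ratio of 0.809, in a window that is 1.9 Mb long. The second chromosome 8 window held 58 ERG and 81 EWS peaks. A megabase with any peak held a median of 2 peaks in either list, but 16 megabases of ERG and 34 of EWS held over 50. The first chromosome 6 window ranked 15 for ERG and 9 for EWS, and the first chromosome 8 window 11 and 8. On chromosome 5 the megabases from 179 and 180 Mb ranked 10 and 13 for ERG, and 30 and 29 for EWS.

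On chromosome 6 the crowded stretches of the 2 VCaP lists began and ended at almost the same positions. A stretch was followed for as long as neighbouring peak centres lay at most 100 kb apart. The first ran from 10975793 to 11472890 for ERG (64 peaks) and from 10970606 to 11474857 for EWS (153 peaks), so its starts differed by 5.19 kb and its ends by 1.97 kb. The second ran from 19837844 to 20815153 for ERG (185 peaks) and from 19836007 to 20813913 for EWS (218 peaks), with starts 1.84 kb and ends 1.24 kb apart. With a limit of 50 kb the second ERG stretch began at 20042510 instead, 207 kb after that of EWS, and the other 3 differences stayed as they were.

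Between these stretches lay 8.36 Mb of chromosome 6 with 0 VCaP ERG and 0 VCaP EWS peaks. All 5 RWPE1 lists had peaks in that interval, with 4 and 2 for the wild-type ERG replicates, 16 for EWS with wild-type ERG, 2 for ERG P436A and 2 for EWS with ERG P436A. Before the first stretch, over 10.97 Mb, VCaP had 2 ERG and 0 EWS peaks, and the RWPE1 lists had from 2 to 14. The 2 stretches held 249 of the 597 VCaP ERG peaks on chromosome 6 (41.7%) and 371 of the 770 EWS peaks (48.2%). The same stretches held 0 peaks of 4 RWPE1 lists and 3 of EWS with wild-type ERG. On all of chromosome 6 those 4 lists had only 83 and 35 (wild-type ERG), 42 (ERG P436A) and 56 peaks (EWS with ERG P436A). EWS with wild-type ERG had 225, so its 3 were 1.33%. With so few peaks on the chromosome, counts of 0 and 3 in stretches this short do not show a difference between the lines. Copy number was not tested, as the 3 input samples were not analysed here.

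**Figure D1:**
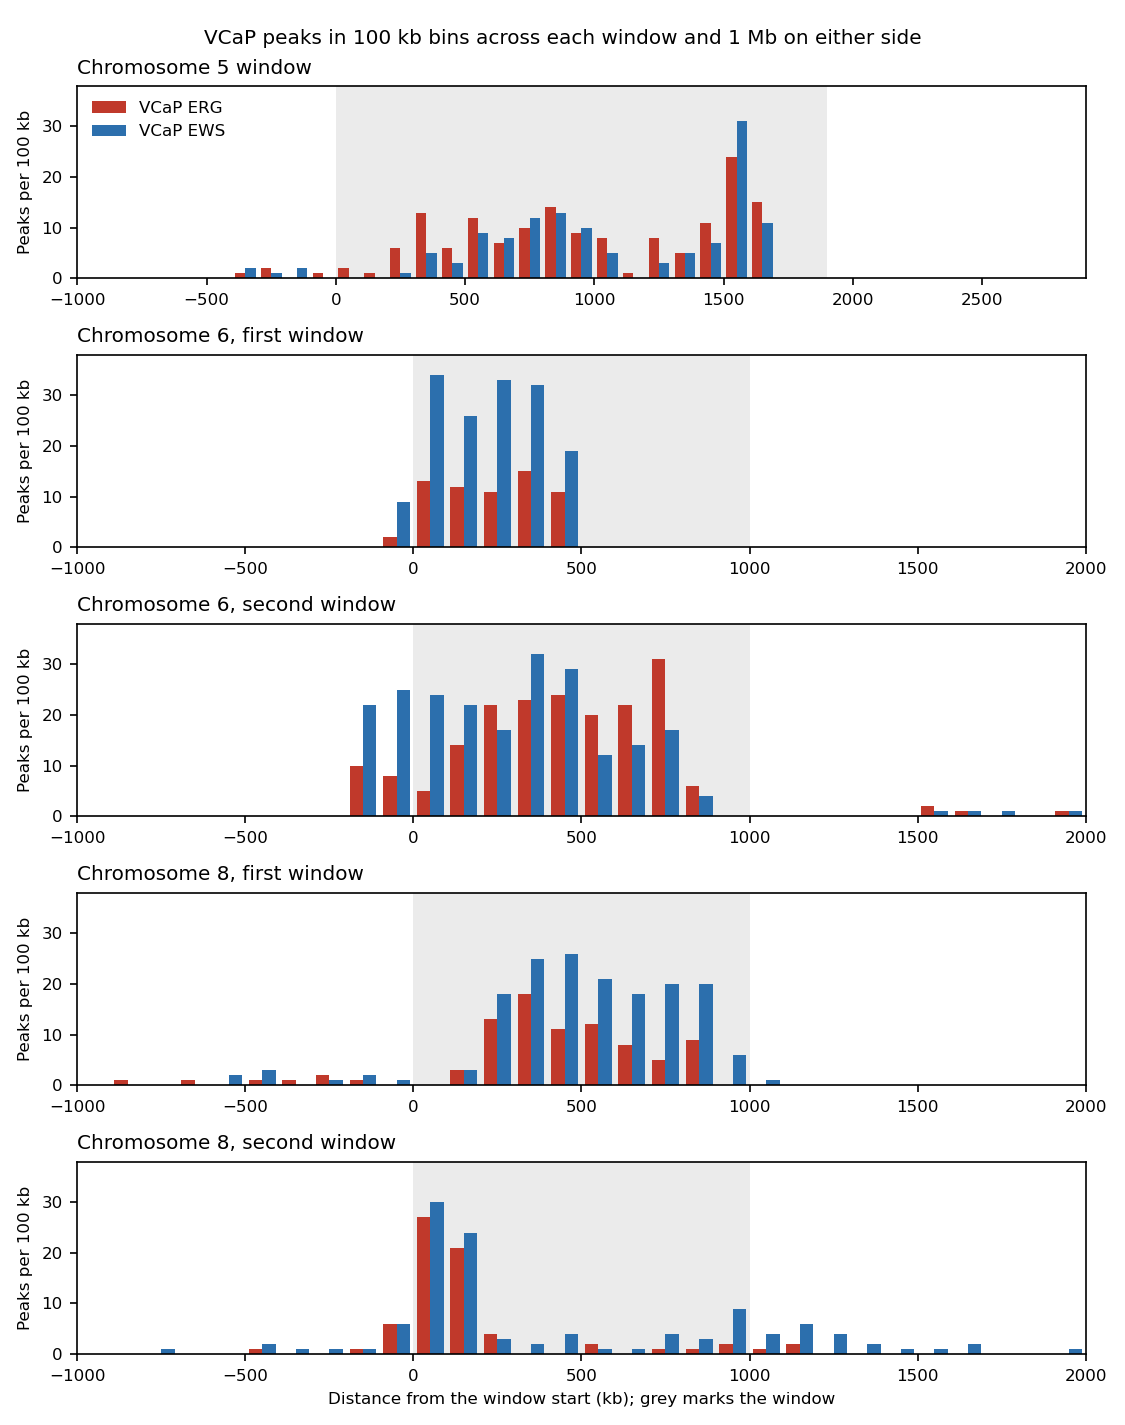
Number of VCaP ERG (red) and EWS (blue) peaks in 100 kb bins against the distance from each window's start in kb, with 1 Mb on either side and the window in grey. Both lists fall from over 10 peaks a bin to 0 at the same bin in the first chromosome 6 window, and the second chromosome 8 window is filled mainly in its first 2 bins.

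With the limit of 100 kb, edges on the other chromosomes were less alike. In the first chromosome 8 window the ERG stretch ran from 38126465 to 38890044 (79 peaks) and that of EWS from 38157835 to 39015491 (158 peaks), so EWS began 31.4 kb later and went on for 125 kb more. With a limit of 50 kb EWS began 81.3 kb earlier and ended 308 kb later, so these distances depend on the limit. After the stretches at 100 kb, the next ERG peak was 3019 kb away and the next EWS peak 2536 kb. Before them, the last ERG peak was 297 kb away and the last EWS peak 229 kb. In the second chromosome 8 window ERG was crowded from 127886316 to 128290300 (59 peaks), and 52 of the window's 58 ERG peaks lay in that stretch. The EWS stretch there ended 262 kb later with 100 kb and 86.1 kb earlier with 50 kb, so its end depends on the limit. On chromosome 5 the ERG stretch ran from 178964668 to 180689343 (153 peaks), while EWS peaks broke into parts at a gap of 121 kb after 180093426. Of limits of 50, 100 and 200 kb, this contrast was seen at 100 kb alone. At 50 kb the ERG stretch broke there too, ending at 180077590 before a gap of 63.5 kb, and the ends were 15.8 kb apart. At 200 kb the EWS stretch ended 32.5 kb before that of ERG.

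The window borders cut through crowded stretches on chromosomes 6 and 8. On chromosome 5 the border left the first ERG peak of the 100 kb stretch outside, at 178964668 to 178965140. An ERG peak at 127999031 to 127999660 fell just outside the second chromosome 8 window, and the first ERG peak inside was at 128000550 to 128001466. On chromosome 6 the last ERG peak before 11 Mb was at 10991030 to 10991522 and the first inside at 11021250 to 11021750. Before 20 Mb the last was at 19983507 to 19984002, and the first inside was at 20042510 to 20043076.

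The densest 100 kb bin was the same in both VCaP lists in 2 of the 5 windows. On chromosome 5 the bin from 180500001 to 180600000 held the most peaks of both lists, 24 of ERG and 31 of EWS. On chromosome 8, in the second window, the bin from 128000001 to 128100000 held the most of both, 27 and 30. The densest bins differed in the other 3 windows. In the first chromosome 6 window ERG had 15 peaks from 11300001 to 11400000, where EWS had 32, and EWS had 34 from 11000001 to 11100000, where ERG had 13. In the first chromosome 8 window ERG had 18 from 38300001 to 38400000, where EWS had 25, and EWS had 26 from 38400001 to 38500000, where ERG had 11. In the second chromosome 6 window ERG had 31 peaks from 20700001 to 20800000, where EWS had 17, and EWS had 32 from 20300001 to 20400000, where ERG had 23. Across the 59 bins Spearman's rho was 0.82 and Pearson's r 0.75. By window rho ran from 0.50 (second chromosome 6 window, 10 bins) to 0.91 (first chromosome 6 window, 10 bins). These values describe neighbouring bins of 2 lists from the same cell line, in windows chosen for crowding, and 9 of the bins held no peak of either list. Of those 9, 5 were in the first chromosome 6 window, so its rho rests largely on filled against empty bins.

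Wide ERG peaks were most frequent in the second chromosome 6 window. There 41 of 167 ERG peaks (24.6%, exact 95% binomial interval 18.2% to 31.8%) were wider than 2000 bp, against 6.19% of the whole ERG list. Shares in the other windows were 7.89% on chromosome 5 (12 of 152), 4.84% in the first chromosome 6 window (3 of 62), and 2.53% (2 of 79) and 5.17% (3 of 58) on chromosome 8. Each of these 4 was lower by Fisher's exact test (two-sided; adjusted p from 3.84e-05 to 0.00223 over 10 window pairs). The other 6 pairs missed the threshold of 0.05, with adjusted p of 0.295 or more. The test was chosen after the widths were seen, and peaks of one list are not replicates, so it compares windows of this list and not conditions. Within the 3856 first listed ERG peaks, 0.5 of that list, the adjusted p for the first against the second chromosome 6 window was 0.101, the highest of 0.00167 to 0.101 over 3 alternatives.

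Median width was highest in the same window, and the order of the others differed from that of the shares. Medians were 931 bp in the second chromosome 6 window (quartiles 624 and 1930 bp), 805 bp in the second and 610 bp in the first chromosome 8 window, 754 bp on chromosome 5 and 676 bp in the first chromosome 6 window. The whole ERG list had a median of 719 bp. The widest was at chromosome 6, 20677289 to 20692541, and spanned 15253 bp. ERG peaks covered 29.8% of the second chromosome 6 window, and from 5.20% to 8.21% of the others. EWS peaks were 394 to 501 bp wide across the windows and covered 3.17% (chromosome 5) to 8.38% (second chromosome 6 window). The whole VCaP EWS list also had no peak over 501 bp, so narrow EWS peaks were not particular to the windows. Interval and test cover counting error only.

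**Figure D2:**
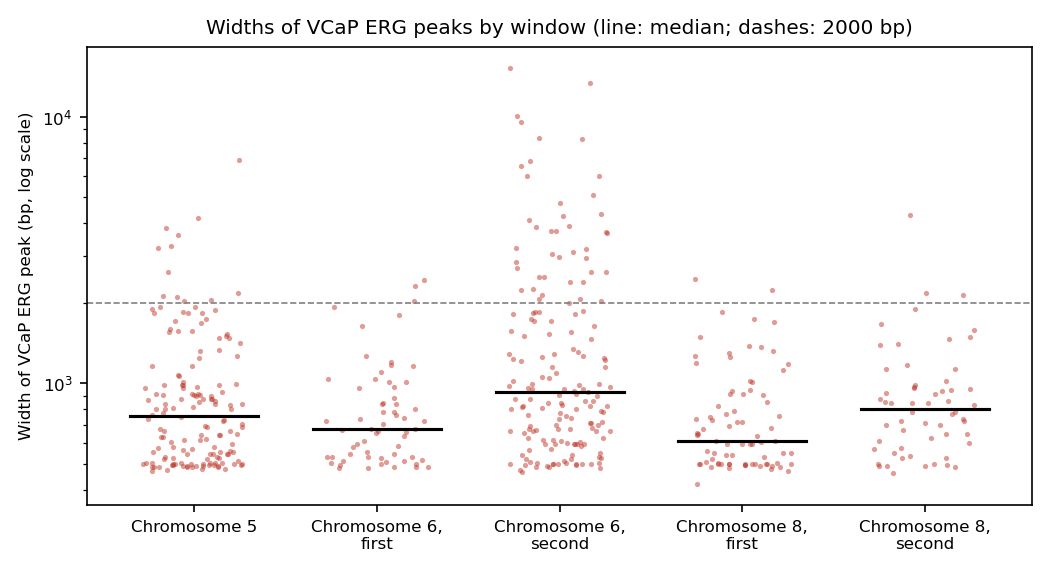
Width of each VCaP ERG peak in bp on a log axis, by window, with the median as a line and 2000 bp dashed. The second chromosome 6 window has 41 peaks above the dashes, the others 2 to 12.

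The share of VCaP ERG peaks with an EWS peak was lowest on chromosome 5. Overlap by at least 1 bp was found at 28 of 152 ERG peaks there (18.4%, 12.6% to 25.5%). It was found at 23 of 62 (37.1%, 25.2% to 50.3%) and 66 of 167 (39.5%, 32.1% to 47.4%) in the first and second chromosome 6 windows. On chromosome 8 it was found at 25 of 79 (31.6%, 21.6% to 43.1%) and 25 of 58 (43.1%, 30.2% to 56.8%). In all windows 167 of 518 ERG peaks had EWS (32.2%, 28.2% to 36.5%), beside 11.3% of the whole ERG list. That gap was not tested, because the windows were selected on the crowding of both lists.

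Chromosome 5 differed from 3 of the other windows by Fisher's exact test, two-sided and adjusted over 10 pairs. Peaks of one list are not replicates, so the tests compare windows of these lists and not conditions. The windows were also selected on peak density, on which overlap can depend, so the p-values are descriptive. The odds of EWS on chromosome 5 were 0.346 times those in the second chromosome 6 window (exact adjusted p = 4.41e-04). They were 0.298 times those in the second chromosome 8 window (exact adjusted p = 0.00299) and 0.383 times those in the first chromosome 6 window (exact adjusted p = 0.0159). Against the first chromosome 8 window the odds ratio was 0.488 (exact adjusted p = 0.0788). No other pair passed, with adjusted p of 0.418 or more. Chromosome 5 also had the lowest EWS density, 64.7 peaks per Mb against 81.0 to 171, and the part of density in its lower share was not tested. The 3 calls were lost when overlap had to reach 0.5 of both peaks, which left 35 ERG peaks with EWS in all windows (adjusted p of 0.853 to 0.863). They held in each of the other 6 alternatives, but not all of these could change the calls. Membership by any overlap left every count as it was. Trimming the windows to the crowded stretches changed only the second chromosome 8 window, to 25 of 54.

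Of the EWS peaks, 175 of 676 lay at an ERG peak (25.9%, 22.6% to 29.4%), beside 10.3% of the whole EWS list. The second chromosome 6 window had the highest share, 69 of 171 (40.4%, 32.9% to 48.1%). The first chromosome 6 window had 24 of 144 (16.7%, 10.98% to 23.8%) and the first chromosome 8 window 26 of 157 (16.6%, 11.1% to 23.3%), where EWS outnumbered ERG most. The second chromosome 8 window had 25 of 81 (30.9%, 21.1% to 42.1%) and chromosome 5 had 31 of 123 (25.2%, 17.8% to 33.8%). By Fisher's exact test 5 of 10 pairs differed, with adjusted p from 1.82e-05 to 0.0362. Here too peaks are not replicates and the windows were selected on peak density, so these p-values are descriptive. The part of ERG and EWS density in the differences was not tested. The second chromosome 6 window was above the first, chromosome 5 and the first chromosome 8 window, and the second chromosome 8 window was above the first of either chromosome. None of these 5 passed once ERG peaks over 2000 bp were left out, or once all peaks were set to 500 bp. In that setting the second chromosome 6 window was at 24.6% and the first chromosome 8 window at 12.7%.

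**Figure D3:**
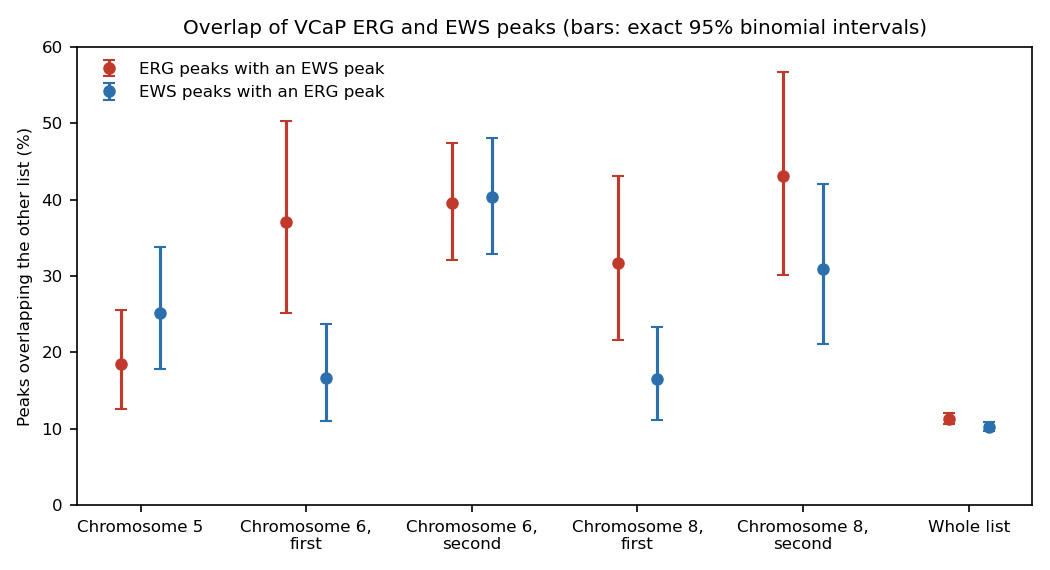
Percent of VCaP ERG peaks with an EWS peak (red) and of EWS peaks with an ERG peak (blue), by window and for the whole lists, with exact 95% binomial intervals. ERG shares run from 18.4% on chromosome 5 to 43.1% in the second chromosome 8 window.

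Wider ERG peaks had EWS more often. In all windows EWS was found at 17 of 80 ERG peaks of at most 500 bp (21.2%), at 68 of 278 over 500 and up to 1000 bp (24.5%), at 46 of 99 up to 2000 bp (46.5%) and at 36 of 61 over 2000 bp (59.0%). Width enters the overlap itself, so these values are a description with no test. The median ERG peak lay 1282 bp from the nearest EWS peak, centre to centre, and 87.6% lay within 5 kb of one. That median was 788 bp in the first chromosome 6 window, where all 62 ERG peaks were within 5 kb, and 2171 bp on chromosome 5, where 111 of 152 were.

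Few ERG peaks held more than 1 EWS peak. Only 8 of the 518 did, none with more than 2. The second chromosome 6 window had 3, at 20677289 to 20692541, 20521117 to 20531191 and 20659583 to 20663472. Chromosome 5 also had 3, at 180630671 to 180634846, 180552369 to 180555657 and 180511987 to 180514112. The first windows of chromosomes 6 and 8 had 1 each. On chromosome 5 the widest ERG peak, at 180614324 to 180621199 (6876 bp), held 1. The widest of the second chromosome 8 window, at 128170163 to 128174447 (4285 bp), held 1 and was also the first listed. In the first chromosome 8 window the widest, at 38625314 to 38627780 (2467 bp), held none.

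EWS peaks of 4 windows stood early in their list, and ERG peaks did not. The order of the lists is not documented as a ranking. The median position of the EWS peaks was 9.18% of the list in the second chromosome 6 window, 21.4% in the second and 30.2% in the first chromosome 8 window, 26.5% in the first chromosome 6 window and 51.0% on chromosome 5. Median positions of the ERG peaks were 44.2%, 51.9%, 60.2%, 61.5% and 54.0% in the same order. The first 950 EWS peaks included 182 from the windows (19.2%), against 7.12% of the whole list. Of the first 771 ERG peaks, 24 were from the windows (3.11%), against 6.72%.

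**Figure D4:**
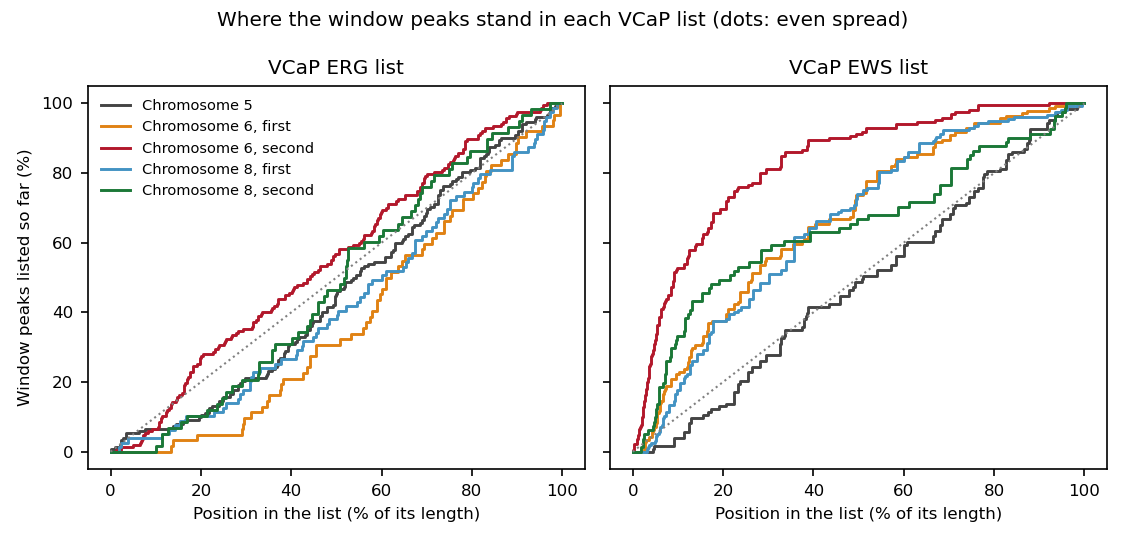
Percent of each window's peaks reached by a given position in the VCaP ERG list (left) and EWS list (right), with an even spread dotted. In the EWS list the second chromosome 6 window reaches 50% of its peaks at 9.18% of the list, while chromosome 5 follows the dotted line.

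The 3 first listed ERG peaks of each window had EWS in VCaP in 5 of 15 cases (33.3%), beside 32.2% of all ERG peaks in the windows. On chromosome 5 the first listed, at 180648762 to 180651990 (position 9 of the list), had an EWS peak, and the next, at 180236347 to 180238537 and 179866128 to 179868022, had none. In the second chromosome 6 window all 3 first listed, led by 20531738 to 20535841 (position 88), had none. In the first chromosome 6 window those at 11310771 to 11312701 and 11092936 to 11095385 had one. On chromosome 8 those at 38366894 to 38369143 and 128170163 to 128174447 had one.

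RWPE1 peaks were few and lay almost all in chromosome 5 and the second chromosome 8 window, with 32 of the 69 in each. The first chromosome 6 window held 3, the second held 2 and the first chromosome 8 window held 0 in all 5 lists. In the last of these windows VCaP had 236 peaks. All 5 RWPE1 lists also had 0 peaks in the neighbouring megabases, from 36 to 38 Mb and from 39 to 41 Mb. Their absence was therefore not particular to that window. An RWPE1 peak lay at a VCaP ERG or EWS peak in 19 of 69 cases (27.5%, 17.5% to 39.6%), beside 5.0% of all RWPE1 peaks. VCaP peaks are denser here than elsewhere, so this difference was not tested. Of the VCaP peaks in the windows, 9 of the 518 of ERG and 8 of the 676 of EWS were met by any RWPE1 peak. Over the whole lists 4.34% of ERG and 2.33% of EWS peaks were.

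RWPE1 peaks lay both inside and outside the crowded VCaP stretches. On chromosome 5 all 32 lay in the ERG stretch, which fills 1.69 Mb of the window (18.9 per Mb), and 0 in the other 0.211 Mb. That remainder, at the end of the window, held no peak of either VCaP list. Of the same 32, 12 lay in the shorter EWS stretch (14.9 per Mb) and 20 outside it (18.2 per Mb). In the second chromosome 8 window 7 of 32 RWPE1 peaks lay in the 0.290 Mb of the ERG stretch, or 24.1 per Mb, and 25 in the other 0.710 Mb, or 35.2 per Mb. By list that window held 9 and 3 peaks of the wild-type ERG replicates, 8 of ERG P436A, 11 of EWS with wild-type ERG and 1 of EWS with ERG P436A. The chromosome 5 window held 3 and 6 of the wild-type ERG replicates, 6 of ERG P436A, 12 of EWS with wild-type ERG and 5 of EWS with ERG P436A. In both windows ERG P436A counts lay between or at those of the wild-type replicates. ERG P436A peaks in all windows were 466 to 501 bp wide. Those of wild-type ERG were 452 to 1136 bp (replicate 1) and 433 to 909 bp (replicate 2). Whether these lists were called in the same way is not known, so their counts may not be comparable. The EWS list with wild-type ERG is longer, with 5703 peaks against 1786, so its counts are not set against those of the others.

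A single region was found in 5 lists. At chromosome 5, 180648762 to 180651990, the wide VCaP ERG peak covered the peaks of wild-type ERG replicate 1 (180650167 to 180651166), replicate 2 (180650221 to 180651129) and ERG P436A (180650442 to 180650926). It stood early in each ERG list, at positions 9, 103, 27 and 8. A VCaP EWS peak overlapped the VCaP ERG peak but none of the RWPE1 peaks, and neither EWS list of RWPE1 had a peak there. The ERG site was thus called in both cell lines and with both forms of ERG.

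A second region was common to RWPE1 lists and absent from those of VCaP. At chromosome 8, 128403315 to 128404227, both wild-type ERG replicates, ERG P436A and EWS with wild-type ERG each had a peak. It was the only region in the windows with ERG and EWS of the wild-type cells together. The EWS list of P436A cells had none there, but with a single, shorter list this does not show a loss. ERG P436A also met EWS with wild-type ERG over 128986523 to 128987065.

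Other regions shared between the lines were at single RWPE1 lists. Wild-type ERG of replicate 1 met VCaP ERG at chromosome 5, 180236484 to 180237152, and at chromosome 8, 128218268 to 128218905. Replicate 2 met it at chromosome 5, 180673744 to 180674270. On the same chromosome EWS with wild-type ERG met VCaP ERG at 179050438 to 179051057 and at 179125918 to 179126527. That list met VCaP EWS at 179419074 to 179419569 and at 180494185 to 180494676. ERG P436A met VCaP EWS at 179566765 to 179567236 and at 179720665 to 179721131. EWS with ERG P436A met VCaP ERG at 179455311 to 179455801. In the second chromosome 8 window replicate 1 met VCaP EWS at 128919396 to 128920531. EWS with wild-type ERG met VCaP ERG there at 128183055 to 128183607 and VCaP EWS at 128426324 to 128426837. EWS with ERG P436A met VCaP EWS at 128706158 to 128706644. On chromosome 6 an EWS peak of wild-type cells at 20688287 to 20689113 lay in the widest VCaP ERG peak, and another at 20013525 to 20014055 lay at a VCaP EWS peak. The 2 wild-type replicates shared a peak at chromosome 5, 180668416 to 180669139, without VCaP. Of the 1064 merged regions of the windows, 879 were in 1 list, 182 in 2 lists, and 3 in 3 or more.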

How the data were processed

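The submitters' processing notes name Bowtie2 (0.12.8) and hg19. Which program called the peaks, at which threshold and against which control, is not given in the sources used here. A deposited list has 3 columns without a header, chromosome, start and end in base pairs, and 1 list belongs to 1 sample. Of 10 samples, 7 had a list, and 3 inputs were not used. Starts were read as 0-based and are printed 1-based. The windows, members and tests were chosen with earlier results of these data known, and the named regions by a written rule: the widest and the 3 first listed ERG peaks, the densest 100 kb bins, border peaks, and RWPE1 peaks at VCaP peaks. Any further region was picked after its values were known. A gene in the second chromosome 8 window is not reported here. No sequence was read, as no hg19 genome was at hand. Shares carry exact (Clopper-Pearson) 95% intervals for counting error. Fisher's exact tests were adjusted by Benjamini-Hochberg over 10 window pairs and tested on simulated data. The simulated peaks were independent, so that check does not cover dependence between neighbouring peaks of a list. Alternatives were reciprocal overlap of 0.5, centres within 500 bp, peaks set to 500 bp, peaks over 2000 bp left out, the first listed 0.5 of each list, membership by any overlap, leaving out each replicate, and, added after seeing the data, windows trimmed to the crowded stretches and other width limits. Computations used Python 3.11.15, NumPy 2.4.6, pandas 2.3.3 and SciPy 1.17.1.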

Additional observations from a re-analysis of the deposited data

How the results depend on the processing

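Counting a peak by any overlap with a window changed none of the counts, shares or pair counts tested. The share of ERG peaks with EWS (32.2%) fell to 6.76% with a reciprocal overlap of 0.5, 22.6% with centres within 500 bp and 22.4% with peaks set to 500 bp. The share of EWS peaks with ERG (25.9%) was 5.18%, 17.3% and 17.2% in these settings, 19.7% without peaks over 2000 bp and 18.1% in the first listed 0.5 of each list. Window pairs that differed in the ERG share went from 3 to 0 with a reciprocal overlap of 0.5 and were 3 or 4 otherwise. Pairs that differed in the EWS share went from 5 to 0 with a reciprocal overlap of 0.5, with centres within 500 bp, with peaks set to 500 bp and without peaks over 2000 bp. Why these calls were lost was not tested. In the first listed 0.5 of each list 6 pairs differed in the EWS share, and they were not all the same pairs. Chromosome 5 against the second chromosome 6 window was no longer called. Chromosome 5 against the first windows of chromosomes 6 and 8 was called in that setting alone. Pairs that differed in the share of wide ERG peaks numbered 3 to 5 in the alternatives, against 4. The first listed 0.5 of the ERG list held 240 of the 518 ERG peaks. The mean of the wild-type ERG replicates, 10.5, was 7.0 in the first listed 0.5 of each list, 8.0 in windows trimmed to the crowded stretches, and 9 to 12 with a replicate left out. No paired analysis was possible because only 1 ChIP group had more than 1 list. Depth is unknown, so a missing peak is not evidence that a factor was absent.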
